A study of Danio rerio with 8 samples.

Results

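Fibrinogen and the acute phase proteins that the liver secretes were followed in whole zebrafish larvae that are mutant for *seph*, which encodes selenoprotein H and is now named *selenoh*. The set named 7 genes: the fibrinogen chain genes fga, fgb and fgg, haptoglobin (hp), hepcidin (hamp), serum amyloid A (saa) and haemopexin (hpx). By symbol, fga, fgb, fgg and hp each matched 1 Ensembl ID of the count table, and hpx matched hpxa through a synonym. The 2 others, hamp and saa, were not matched and are not analysed here, so 5 of the 32434 genes in the table are described. Whole larvae do not show which organ made a transcript, so the name of a liver set could be checked only against hepatocyte markers measured in the same libraries.

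Groups were 4 libraries labelled as the mutant and 4 labelled as wild type, all of polyadenylated RNA from larvae at 5 days post fertilization. The labels name neither the allele nor the number of larvae per sample, and give no other treatment or genetic change. Libraries held 51246749 to 56409917 counts. *selenoh* itself lay between 14.4 and 22.2 CPM (counts scaled to library size with TMM factors) in wild type and between 0 and 0.358 CPM in the mutant, so every library matched its label. For a count of 0 the limit is 3 counts. The libraries numbered 3 stood apart in both groups: their deviations from the group means correlated at 0.662 across genes, against 0.249 to 0.473 for the other same-numbered pairs.

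Fibrinogen is a soluble plasma protein made of paired alpha, beta and gamma chains, which thrombin cleaves so that it polymerises into the fibrin of a clot. Hepatocytes make it, and in mammals interleukin 6 and related cytokines raise its transcription through the receptor subunit gp130, the kinase Jak1 and the factor Stat3. Other proteins of this acute phase response bind what damaged tissue releases: haptoglobin takes up free haemoglobin and haemopexin takes up free haem. RNA came from whole larvae, so a change in the number of hepatocytes and a change in RNA per hepatocyte cannot be told apart.

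The fibrinogen chain genes were about 2 times as abundant in the mutant, and haptoglobin about 6 times, while hpxa was lower on average with overlapping groups. By edgeR's quasi-likelihood F test, adjusted by the Benjamini-Hochberg (BH) method over 27050 genes and read at 0.05, 4 of the 5 genes rose and 0 fell. hp is 1 of these 4 and passed the expression filter only through its mutant libraries, so its place in these counts is a description and not support. The 3 others that rose, and hpxa, reached the filter in all 8 libraries. The background was 8.65% of all tested genes called higher and 8.45% called lower, 17.1% in either direction. The same 4 genes had groups that did not overlap, each with the mutant higher. That was so for 11% of tested genes in the higher direction, 11.1% in the lower and 22.1% in either. The median log2 fold change was 1.03 over the 5 genes and 0.0082 over all tested genes.

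The alpha chain gene fga (ENSDARG00000020741) had 136, 157, 154 and 122 CPM in wild type replicates 1 to 4 and 322, 388, 224 and 244 CPM in mutant replicates 1 to 4. Every mutant library lay above every wild type library, and the lowest mutant value was 1.43 times the highest wild type value. The group means were 142 ± 16.5 and 294 ± 75.6 CPM (SD, n = 4 each), a log2 fold change of 1.05 ± 0.18 (SE, edgeR quasi-likelihood, BH-adjusted p = 0.00529).

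The beta chain gene fgb (ENSDARG00000008969) had 107, 125, 126 and 104 CPM in wild type and 252, 309, 182 and 201 CPM in the mutant. The order of the mutant libraries was that of fga, with replicate 2 highest and replicate 3 lowest. Means were 115 ± 11.3 and 236 ± 56.7 CPM (SD, n = 4 each), and the log2 fold change was 1.03 ± 0.17 (edgeR quasi-likelihood, BH-adjusted p = 0.00406).

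The gamma chain gene fgg (ENSDARG00000037281) had 99.4, 115, 104 and 110 CPM in wild type and 212, 242, 152 and 181 CPM in the mutant. Again the groups did not overlap, and mutant replicates 2 and 3 were the highest and the lowest. Means were 107 ± 6.72 and 197 ± 39.0 CPM (SD, n = 4 each), with a log2 fold change of 0.88 ± 0.15 (edgeR quasi-likelihood, BH-adjusted p = 0.00421).

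**Figure D1:**
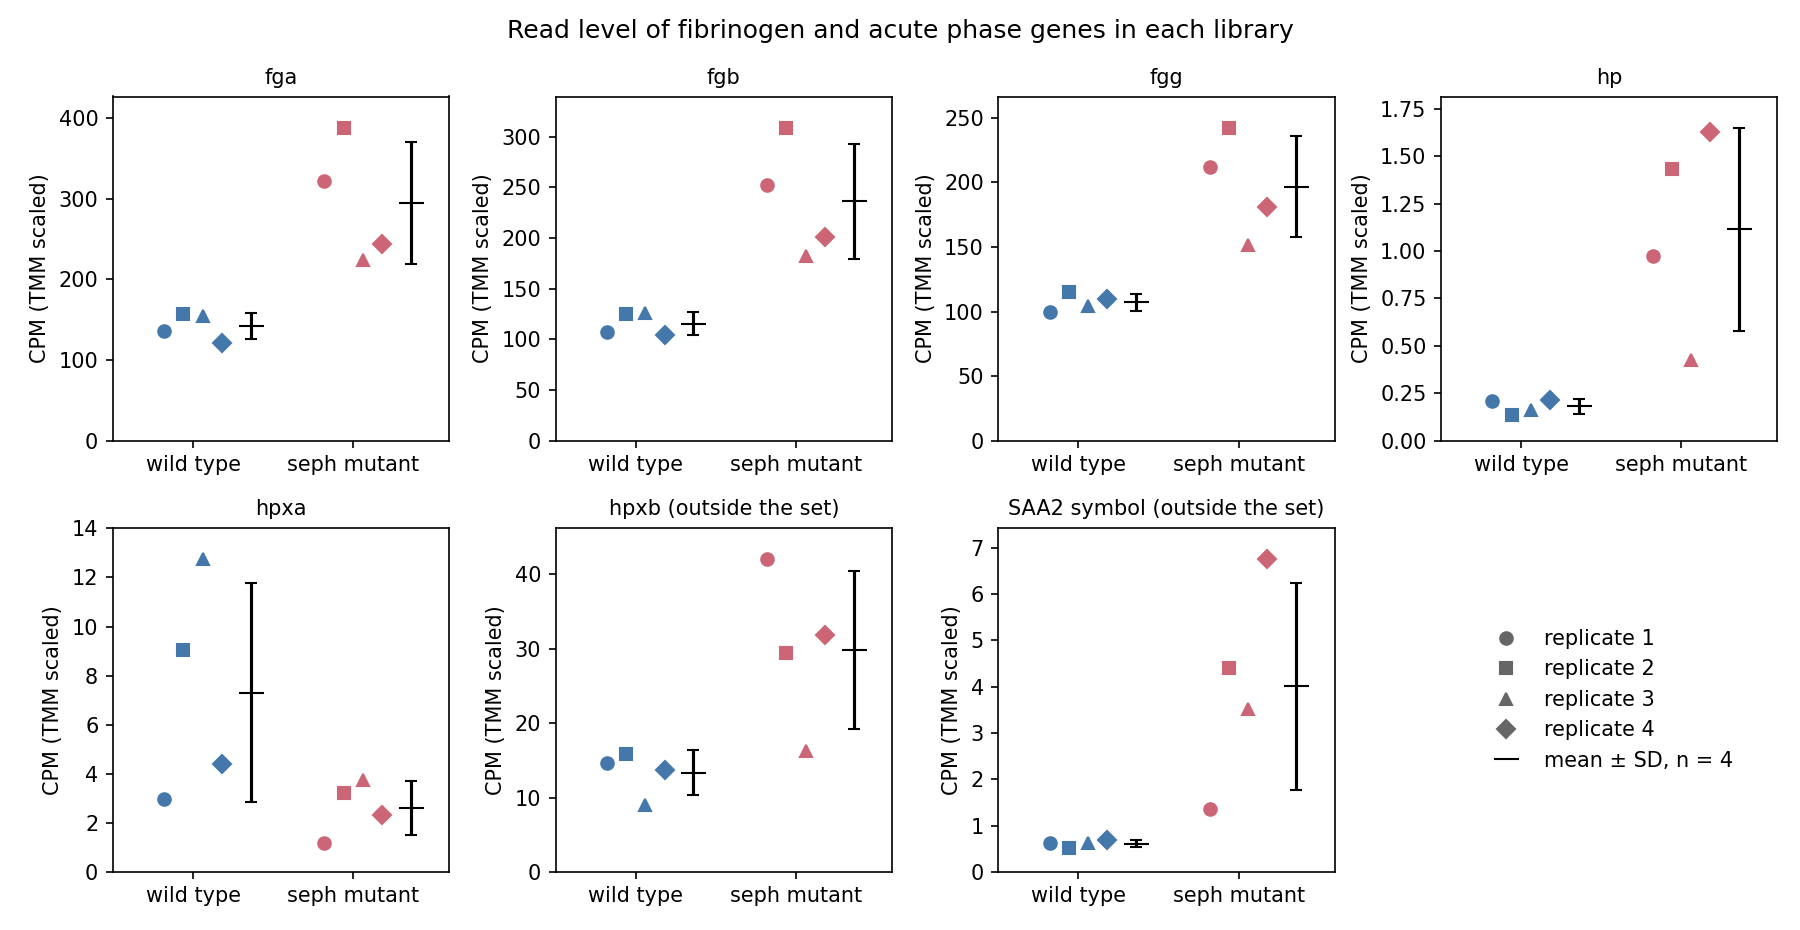
TMM-scaled CPM of fga, fgb, fgg, hp and hpxa, and of hpxb and the gene with the symbol SAA2, in each of the 8 libraries (marker shape gives the replicate number, bars are mean ± SD, n = 4). Every mutant library lies above every wild type library except for hpxa, where wild type runs from 2.97 to 12.8 CPM and the mutant from 1.19 to 3.74 CPM.

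Spread was wider in the mutant for each chain. The coefficient of variation was 25.7%, 24.0% and 19.8% for fga, fgb and fgg in the mutant and 11.6%, 9.77% and 6.27% in wild type. Together the 3 genes took 0.0325% to 0.0393% of counts in wild type libraries and 0.0570% to 0.0961% in mutant libraries. Between libraries of the same number, the mutant to wild type ratio of fga was 2.36, 2.47, 1.45 and 2.0 for numbers 1 to 4, that of fgb 2.35, 2.48, 1.45 and 1.93, and that of fgg 2.13, 2.11, 1.45 and 1.65. All 3 chains thus had their smallest ratio between the libraries numbered 3.

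The proportions of the chains to each other were compared next. The log2 ratio of fga to fgb was 0.31 ± 0.03 in the mutant and 0.30 ± 0.05 in wild type (SD, n = 4 each), a difference of 0.014 (exact two-sided permutation p = 0.743, adjusted p = 0.743 over 3 ratios). The log2 ratio of fga to fgg was 0.57 ± 0.11 and 0.40 ± 0.18, a difference of 0.16 (exact permutation p = 0.200, adjusted p = 0.300). That of fgb to fgg was 0.25 ± 0.08 and 0.10 ± 0.14, a difference of 0.15 (exact permutation p = 0.114, adjusted p = 0.300). None of these differences passed the test, which does not show that the chains changed alike. The ratios compare read counts and carry the unequal transcript lengths, which cancel between the groups.

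In the GRCz12tu gene order fgb and fga stand next to each other with 1 uncharacterised gene between them, and fgg lies apart, next to plrg1 and lrata. Of 12 measured neighbours of the 5 genes, up to 2 on each side, 2 rose and 2 fell. Among all tested genes 8.65% were called higher and 8.45% lower. Beside fgb, rnf175 had a log2 fold change of 0.24 ± 0.10 and trim2b fell by 0.37 ± 0.09. Beside fgg, the splicing factor gene plrg1 had 0.13 ± 0.13 and the cadherin gene dchs2 fell by 0.82 ± 0.17. Those that rose were the neighbours of hpxa, mxc (2.15 ± 0.37), of the interferon-induced Mx family, and ankrd50l (1.27 ± 0.12). lrata, on the other side of fgg, had 0.71 ± 0.24 (2.60 CPM in wild type and 4.27 CPM in the mutant) and was not called (edgeR quasi-likelihood, BH-adjusted p = 0.0688). Beside hp, sult5a1 had 2.68 ± 0.92 and was not called either (edgeR quasi-likelihood, BH-adjusted p = 0.0772).

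Haptoglobin was rare in wild type. hp (ENSDARG00000051890) had 11, 7, 9 and 11 counts in wild type replicates 1 to 4 and 54, 80, 24 and 89 counts in mutant replicates 1 to 4. The wild type counts of 7 and 11 have exact 95% Poisson intervals of 2.81 to 14.4 and 5.49 to 19.7, and the lowest mutant count of 24 has one of 15.4 to 35.7. Such intervals hold counting error alone, as reads were not tied to single molecules. Group means were 0.180 ± 0.0386 CPM in wild type and 1.11 ± 0.535 CPM in the mutant (SD, n = 4 each).

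The groups did not overlap for hp, and the log2 fold change was 2.61 ± 0.45 (edgeR quasi-likelihood, BH-adjusted p = 0.00481). All 4 mutant libraries but only 2 wild type libraries reached the expression filter, a level of 0.184 CPM, so hp was tested because of its mutant level. Among mutant libraries, replicate 4 was the highest and replicate 3 the lowest, while the fibrinogen genes were highest in replicate 2. Between libraries of the same number the ratio ran from 2.61 for number 3 to 10.7 for number 2.

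hpxa (ENSDARG00000012609), a haemopexin gene, differed from the rest of the set. It had 2.97, 9.06, 12.8 and 4.41 CPM in wild type replicates 1 to 4 and 1.19, 3.20, 3.74 and 2.31 CPM in mutant replicates 1 to 4. Wild type replicate 1 lay below mutant replicates 2 and 3, so the groups overlapped, although each mutant library was lower than the wild type library of its number. Means were 7.30 ± 4.47 and 2.61 ± 1.11 CPM (SD, n = 4 each).

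With all 8 libraries hpxa was not called (log2 fold change -1.48 ± 0.48, edgeR quasi-likelihood, BH-adjusted p = 0.0643). With the replicate number as a block it passed as lower (-1.39, edgeR quasi-likelihood adjusted p = 0.00256), and it also passed without wild type replicate 1 (-1.75, edgeR quasi-likelihood adjusted p = 0.0405) and by DESeq2's Wald test (-1.495, adjusted p = 0.00822). Over all alternatives the adjusted p ran from 0.00256 to 0.152. Over all genes the blocked fit called 3783 higher and 3623 lower, against 2339 and 2287 without the block.

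The paralogue hpxb (ENSDARG00000051912), which is outside the set, rose. It had 14.7, 15.9, 9.03 and 13.7 CPM in wild type and 42.1, 29.4, 16.2 and 31.8 CPM in the mutant, with the lowest mutant value just above the highest wild type value. Its log2 fold change was 1.16 ± 0.28 (edgeR quasi-likelihood, BH-adjusted p = 0.0202), and it lost the call without mutant replicate 1 (adjusted p = 0.0567), wild type replicate 1 (0.0529) or wild type replicate 4 (0.0503). Whether the haemopexin paralogues differ in their change was not tested.

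The profiles nearest to that of hpxa over the 8 libraries were those of blood genes. Among 12221 genes with a symbol and a mean level not under 5 CPM, the smallest root mean square distances between centred log2 (CPM + 0.5) profiles were those of myb, a factor of blood progenitors (0.42), and of the embryonic globin genes hbae1.3 (0.44) and hbae1.2 (0.45). myb fell in the mutant (-1.19 ± 0.23), and the globin genes, near-identical copies whose reads may be split between them, had -0.99 ± 0.34 and -0.92 ± 0.33 and were not called. All were chosen by their likeness to hpxa, so lower mutant values follow from the choice.

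Of 8 tested erythroid genes 5 fell and 0 rose (1 rose with limma-voom and without both libraries numbered 3), and the median was -0.95 on the log2 scale. The share that fell was 62.5%, against 8.45% of all tested genes. The globin gene hbaa2, the 1 of 9 matched that was not tested, was at 0 in 5 libraries. Among those that fell were the anion exchanger slc4a1 (ENSDARG00000012881, -1.96 ± 0.42), the membrane skeleton gene epb41b (-1.04 ± 0.20) and the factor tal1 (-0.75 ± 0.12). The other slc4a1 entry, ENSDARG00000024560, lay above 0 (0.56 ± 0.27) and was not called (edgeR quasi-likelihood, BH-adjusted p = 0.1865). The summed level of the list was 735, 964, 991 and 412 CPM in wild type and 338, 578, 514 and 367 CPM in the mutant. Like hpxa, it was highest in wild type replicates 3 and 2 and lowest in mutant replicate 1, but wild type replicate 1, the lowest of its group for hpxa, was not the lowest here. The part of red blood cell RNA in the hpxa values was not tested.

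**Figure D2:**
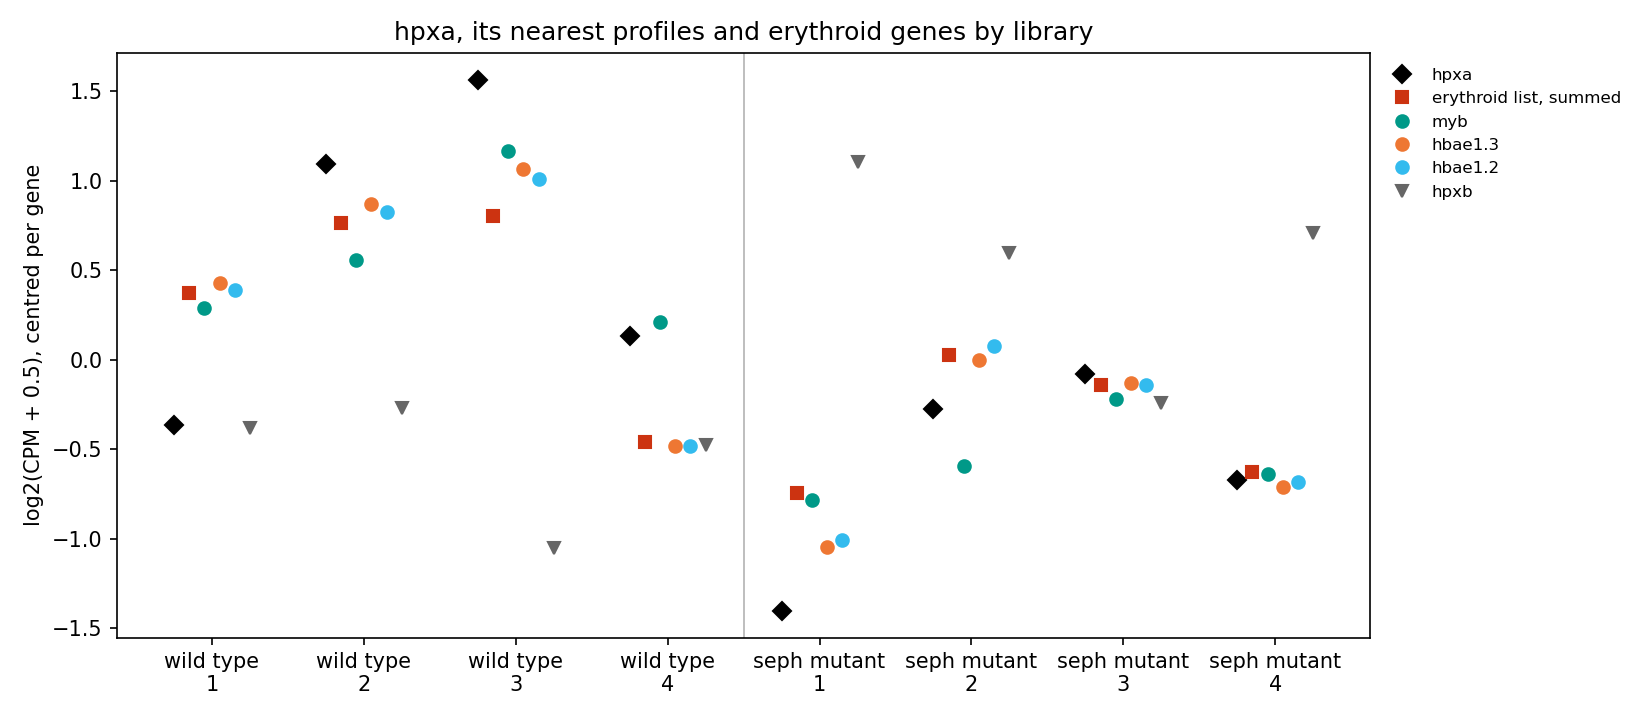
Centred log2 (CPM + 0.5) of hpxa, of the summed erythroid list, of myb, hbae1.3 and hbae1.2, and of hpxb in each library (1 marker per gene and library, each gene centred on its mean over the 8 libraries). hpxa, the erythroid list, myb and both globin genes are highest in wild type replicate 3 and lowest in mutant replicate 1, where hpxb, at 42.1 CPM, is at its highest.

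One gene outside the set, ENSDARG00000045999, carries the human-type symbol SAA2 of a serum amyloid A gene, a protein of high density lipoprotein in the acute phase. It was chosen after its values were seen. SAA2 had 0.625, 0.516, 0.617 and 0.686 CPM in wild type and 1.35, 4.40, 3.53 and 6.75 CPM in the mutant, so the groups did not overlap. Its log2 fold change was 2.71 ± 0.43 (edgeR quasi-likelihood, BH-adjusted p = 0.00352). Its lowest mutant library was replicate 1 and not replicate 3, and its highest was replicate 4, as for hp.

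The profiles closest to the mean of the fibrinogen genes were those of scrn2 (root mean square distance 0.095), the glutathione transferase gene gstm3 (0.096) and the guanine nucleotide exchange factor gene spata13 (0.10). All of these rose, by 0.88 ± 0.15, 0.92 ± 0.17 and 0.84 ± 0.16, which follows from choosing them by likeness in these same libraries. Closest to hp were ifitm1, a membrane protein gene of the interferon response (0.16), the metal reductase gene steap4 (0.17) and the lysozyme gene lygl1 (0.19). They rose by 1.41 ± 0.24, 1.32 ± 0.19 and 1.11 ± 0.24, and were likewise chosen by likeness. The added 0.5 CPM exceeds the wild type mean of hp, 0.180 CPM, and shrinks its change on this scale. The nearest profiles and the distances of hp therefore depend on it. Within the set, fgb lay nearest to the fibrinogen mean (0.036) and fgg farthest of the chains (0.091), while hp was at 0.32 and hpxa at 1.27. That mean contains the chains themselves, which brings them nearer to it.

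Hepatocyte markers did not share the rise of the fibrinogen genes in this test. Of 21 markers 10 fell (47.6%, against 8.45% of all tested genes) and 0 rose, and their median was -0.82 on the log2 scale. The higher count was 2 with the replicate block and 1 by DESeq2's Wald test, with limma-voom, without wild type replicate 3 and without both libraries numbered 3. The liver fatty acid binding protein gene fabp10a had 468, 565, 184 and 393 CPM in wild type and 222, 283, 138 and 272 CPM in the mutant, and was not called (-0.82 ± 0.33, edgeR quasi-likelihood, BH-adjusted p = 0.126). The liver fate factor prox1 (-1.16 ± 0.09), the tryptophan dioxygenase tdo2 (-1.53 ± 0.13) and the urate oxidase uox (-1.56 ± 0.22) fell, as did the hepatocyte nuclear factor hnf4a (-0.47 ± 0.12), whose call was lost in 6 of the 8 fits that left out 1 library. 5 markers had values above 0 and were not called: the lipoprotein genes apoa2 (0.40 ± 0.21), apobb.1 (0.18 ± 0.19) and apom (0.67 ± 0.22), the arginase gene arg1 (0.33 ± 0.24) and the liver factor foxa3 (0.12 ± 0.11). The most abundant of the list were apobb.1 (2403 CPM in wild type and 2722 CPM in the mutant) and apoa2 (1501 and 1976 CPM). No marker was at 0 in any library, and whole larvae do not show which organ made the marker transcripts. The summed level of the list, 5028 to 5581 CPM in wild type and 4003 to 6812 CPM in the mutant, overlapped between groups.

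Set against the mean of these markers in the same library, the fibrinogen genes and hp stood higher in every mutant library. On the scale of log2 (CPM + 0.5) minus the marker mean, fga had 1.31, 1.41, 1.82 and 1.14 in wild type and 3.37, 3.41, 2.84 and 2.89 in the mutant. The mutant minus wild type difference was 1.71 for fga, 1.69 for fgb, 1.54 for fgg and 1.87 for hp, each with p = 0.0286 by a two-sided exact permutation test, the lowest value possible for 4 against 4 libraries (adjusted p = 0.0357 over 5 genes). hp passed the expression filter only through its mutant libraries, so its result here is a description and not support. Permuted within pairs of the same replicate number, p was 0.125, the lowest that 4 pairs allow, so these calls do not hold with the replicate block. The value of hp depended on the added 0.5 CPM, which exceeds its wild type mean: with 0.1 CPM in its place the difference was 2.71 for hp, 1.74 for fga, 1.72 for fgb and 1.57 for fgg. The difference for hpxa was -0.53 (exact permutation p = 0.371, adjusted p = 0.371). The marker mean itself was 5.73 ± 0.19 in wild type and 5.04 ± 0.11 in the mutant (SD, n = 4 each), which adds 0.69 to each of these differences. With the summed CPM of the markers in its place the differences kept their sign for each gene: 0.98 for fga, 0.97 for fgb, 0.82 for fgg, 1.14 for hp and -1.25 for hpxa.

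**Figure D3:**
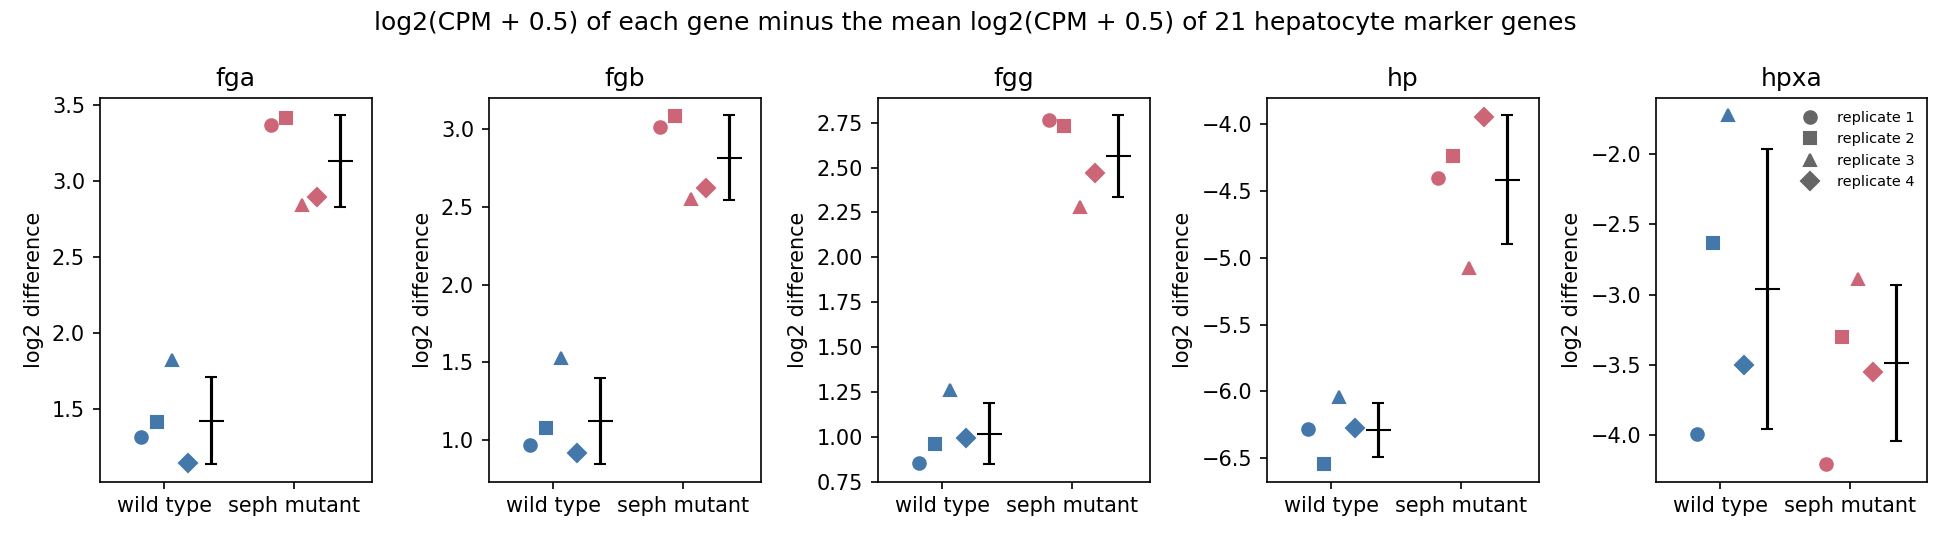
Difference between log2 (CPM + 0.5) of each gene and the mean of 21 hepatocyte markers in the same library (points are libraries, bars mean ± SD, n = 4). For fga, fgb, fgg and hp all mutant libraries lie above all wild type libraries, and for hpxa the groups overlap.

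Of 28 other genes of coagulation and fibrinolysis 5 rose (17.9%, against 8.65% of all tested genes) and 1 fell (3.57%, against 8.45%). Their median was 0.20 on the log2 scale. Among those that rose were the plasminogen activator plat (0.80 ± 0.15), the tissue factor pathway inhibitor tfpi (0.60 ± 0.13), tissue factor f3b (0.94 ± 0.21) and thrombomodulin thbd (0.63 ± 0.18). The plasmin inhibitor serpinf2a fell by 0.38 ± 0.11. The hepatic factors f2 (0.33 ± 0.13), f10 (0.31 ± 0.18) and plg (0.36 ± 0.16) and the antithrombin serpinc1 (0.11 ± 0.18) were not called (edgeR quasi-likelihood, BH-adjusted p = 0.106, 0.278, 0.164 and 0.708). These last 4 and f3b and thbd were named after their values were seen. The higher count was 8 without mutant replicate 3 or without both libraries numbered 3, and 9 with the replicate block or limma-voom. It was 4 without a filter on low counts, and when any single library other than mutant replicate 3 was left out. Over all genes the block called 3783 higher and limma-voom 5039, against 2339 by edgeR without the block. The lower count was 0 without mutant replicate 2, 3 or 4, without wild type replicate 2, 3 or 4, and with the block. It was also 0 without both libraries numbered 3, with upper-quartile factors, with library size only and without a filter on low counts. With limma-voom it was 2.

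Other acute phase and plasma protein genes went both ways. Of 32 measured genes 8 rose (25%, against 8.65% of all tested genes) and 4 fell (12.5%, against 8.45%), with a median of 0.058. The 8 include hpxb, described above. The complement genes c3a.2 (1.76 ± 0.34) and c5 (0.94 ± 0.18) and the metal reductase gene steap4 (1.32 ± 0.19) rose. c3a.2 had 34.9, 40.3, 35.7 and 30.7 CPM in wild type and 181, 162, 59.06 and 75.8 CPM in the mutant. Its lowest mutant library was replicate 3 and its next replicate 4, as for fga, fgb and fgg. Its highest was replicate 1, while that of the fibrinogen genes was replicate 2. The transthyretin gene ttr (-0.83 ± 0.17) and the fetuin gene ahsg1 (-1.74 ± 0.38) fell, whose products go down in the mammalian acute phase. Other genes of the list were not sorted by such a direction. The list also holds spink4, a protease inhibitor gene of the Kazal type, which fell (-3.00 ± 0.21) and is counted among the 4. Its place among plasma proteins was not checked. The groups overlapped for ahsg1, with wild type replicate 3 at 8.62 CPM and mutant replicate 4 at 9.41 CPM. The transferrin gene tfa, the most abundant of the list, was not called (-0.11 ± 0.14, 1106 CPM in wild type and 1021 CPM in the mutant). Genes of the C-reactive protein family were not called, with apcs (1.18 ± 0.43), crp3 (0.98 ± 0.40) and crp6 (0.036 ± 0.39) above 0. Below 0 were crp2 (-0.35 ± 0.33), crp5 (-0.41 ± 0.34), crp7 (-0.48 ± 0.19) and crp1 (-0.62 ± 0.29). Also not called were cp (0.71 ± 0.43) and serpina1 (-0.33 ± 0.13). The same held for the complement genes c3a.3 (0.28 ± 0.33), c3b.1 (-0.35 ± 0.25) and c3b.2 (-0.28 ± 0.215). Those not called were named after their values were seen. The higher count was 4 without mutant replicate 1 or wild type replicate 1, and 5 without mutant replicate 2 or wild type replicate 4. Over all genes those fits called 1292 to 1748 higher, against 2339 with all 8 libraries.

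**Figure D4:**
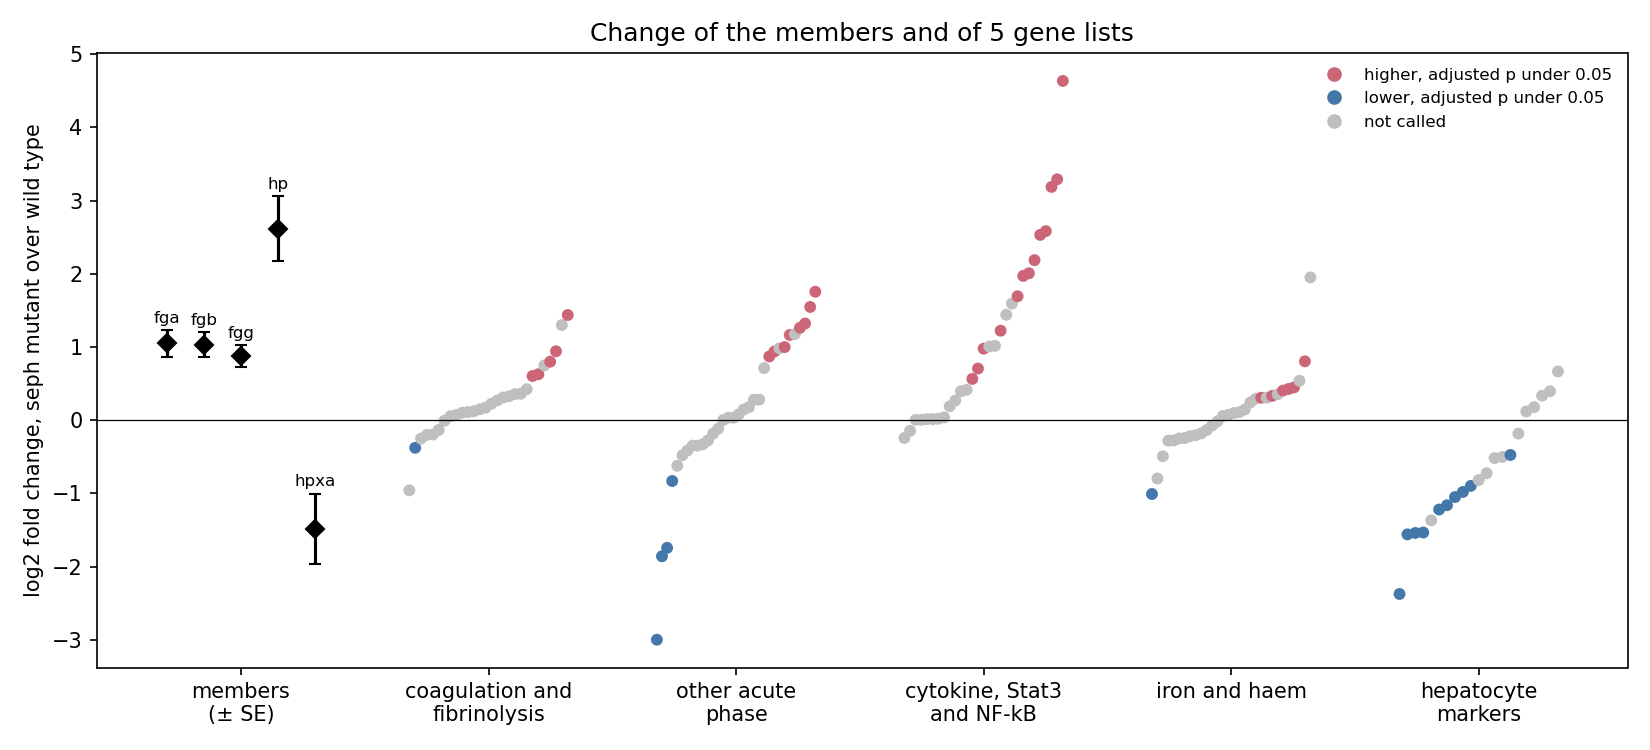
Log2 fold change, mutant over wild type, of the 5 genes of the set (diamonds, ± SE) and of every tested gene of 5 lists, ordered within each list. The cytokine, Stat3 and NF-kB list has 13 genes higher and 0 lower, and the hepatocyte marker list has 0 higher and 10 lower. Of those 13, 4 were tested because of their mutant level.

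In a mixed list of cytokine, Stat3 and NF-kB regulators 13 of 29 tested genes rose and 0 fell, with a median of 0.98. The share that rose was 44.8%, against 8.65% of all tested genes. Of these 13, 4 (il11a, il11b, lepa and lepb) reached the expression filter in fewer than 4 wild type libraries, so they were tested because of their mutant level. Their place in the count and in the share is a description and not support. The lower count was 1 by DESeq2's Wald test, with limma-voom and without both libraries numbered 3. The receptor gene lifrb (2.01 ± 0.16), whose mammalian counterpart signals with gp130, the kinase gene jak1 (0.98 ± 0.09) and stat3 (1.22 ± 0.12) rose. stat3 had 30.1, 30.9, 37.6 and 39.5 CPM in wild type and 80.5, 70.3, 85.6 and 85.9 CPM in the mutant, and was not lowest in mutant replicate 3. The kinase gene jak2 (0.0060 ± 0.09), the factor gene stat5a (-0.14 ± 0.15) and the inhibitor gene socs1 (0.015 ± 0.59) were not called.

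The feedback inhibitor gene socs3 has copies that differed in their spread. ENSDARG00000026611 had 15.8, 17.4, 18.7 and 24.8 CPM in wild type and 137, 126, 77.3 and 119 CPM in the mutant (2.58 ± 0.21). ENSDARG00000025428 had 106, 114, 18.2 and 51.3 CPM in wild type and 315, 265, 48.7 and 244 CPM in the mutant, low in both libraries numbered 3, and was not called (1.59 ± 0.64, edgeR quasi-likelihood, BH-adjusted p = 0.118). It passed in 3 of 17 alternatives, with the replicate block (1.61, edgeR quasi-likelihood adjusted p = 0.00188), without mutant replicate 3 (1.93, 0.0359) and without both libraries numbered 3 (1.604, 0.00464).

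The factors cebpb and cebpd, which act beside Stat3 on mammalian acute phase promoters, were not called with all 8 libraries. cebpb had 85.0, 80.4, 26.6 and 69.8 CPM in wild type and 150, 149, 83.2 and 147 CPM in the mutant (1.02 ± 0.34, edgeR quasi-likelihood, BH-adjusted p = 0.0701), and passed in 7 of 17 alternatives, among them the replicate block (1.1, edgeR quasi-likelihood adjusted p = 0.00348), both fits without 1 library numbered 3 (adjusted p = 0.0428 and 0.0278) and the fit without both (0.92, adjusted p = 0.000548). cebpd had 436, 436, 66.6 and 253 CPM in wild type and 368, 313, 127 and 396 CPM in the mutant (0.016 ± 0.53, adjusted p = 0.987 in the same edgeR quasi-likelihood test). Both were lowest in the libraries numbered 3. The cytokine genes il6 and il1b were not matched to an ID and are not analysed here. The leptin gene lepb had 0, 0.459, 0.272 and 3.31 CPM in wild type and 14.8, 9.30, 4.86 and 10.4 CPM in the mutant, and rose (3.29 ± 0.96, edgeR quasi-likelihood, BH-adjusted p = 0.0449). The call of lepb ended in 7 of 17 alternatives. Among these were all fits that left out a single mutant library other than replicate 3, or a single wild type library other than replicate 4 (edgeR quasi-likelihood adjusted p from 0.0553 to 0.126). Without wild type replicate 4 its value was 5.32, and with any other library left out it ran from 2.87 to 3.52.

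Hepcidin, haptoglobin and haemopexin act on iron and haem. Of 30 other genes on the list for iron and haem handling 6 rose (20%, against 8.65% of all tested genes) and 1 fell (3.33%, against 8.45%). Their median was 0.087. The 30 include ftr82 (-0.25 ± 0.14, not called), whose part in iron handling was not checked. The ferroxidase gene hephl1a (0.80 ± 0.13) and the ligand genes bmp6 (0.43 ± 0.10) and bmp2 (ENSDARG00000041430, 0.45 ± 0.11) rose, and the inhibitory smad6 changed in both directions, ENSDARG00000053209 falling by 1.01 ± 0.22 and ENSDARG00000031763 rising by 0.33 ± 0.09. In mammals bmp6 raises hepcidin. The higher count was 1 when mutant replicate 1 or 2 was left out, and also without any single wild type library but replicate 3. Over all genes those fits called 1262 to 1748 higher, against 2339 with all 8 libraries. The lower count was 3 with limma-voom, without wild type replicate 3 or without both libraries numbered 3, and 2 with the replicate block.

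Markers of other cells that respond in inflammation moved in both directions. Of 14 tested macrophage genes 5 rose (35.7%, against 8.65% of all tested genes) and 1 fell (7.14%, against 8.45%), with a median of 0.59. Those that rose included marco (1.56 ± 0.21), irf8 (1.54 ± 0.22) and apoeb (1.43 ± 0.22), while ccl34b.1 fell by 0.77 ± 0.21. Not called were mpeg1 (ENSDARG00000043093, 1.51 ± 0.53, edgeR quasi-likelihood, BH-adjusted p = 0.0822) and its copy ENSDARG00000055290 (0.26 ± 0.15). The same held for spi1 (0.014 ± 0.14) and csf1rb (-1.004 ± 0.325, edgeR quasi-likelihood, BH-adjusted p = 0.0627). The remaining genes not called were copies of mfap4, all with positive values. Genes not called were named after their values were seen. The summed level of the list was 643 to 1070 CPM in wild type and 1472 to 2359 CPM in the mutant. Most of that sum was apoeb, and without it the list had 71.9 to 106 CPM in wild type and 117 to 234 CPM in the mutant. The higher count was 9 with the replicate block and 10 with limma-voom. The lower count was 0 without mutant replicate 1, 2 or 4, without wild type replicate 2, 3 or 4, and with library size only. It was 2 without mutant replicate 3, without both libraries numbered 3, with the block, by DESeq2's Wald test and with limma-voom. The part of macrophage RNA in the values of hp, SAA2 and the fibrinogen genes was not tested.

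The other marker lists give the rest of the larva. Beside them, 8.65% of all tested genes were called higher and 8.45% lower. Of 3 neutrophil genes the lysozyme gene lyz (-2.59 ± 0.28) and npsn (-0.91 ± 0.19) fell (summed over the list 42.1 to 61.5 CPM in wild type and 43.3 to 74.4 CPM in the mutant). The collagenase gene mmp13a went from a mean of 10.3 CPM to 40.2 CPM and was not called (1.97 ± 0.63, edgeR quasi-likelihood, BH-adjusted p = 0.0599). Without mmp13a the sum was 34.4 to 42.7 CPM in wild type and 12.8 to 12.99 CPM in the mutant. The higher count was 1 with the replicate block, by DESeq2's Wald test, with limma-voom or without wild type replicate 4. Thrombocytes bind fibrinogen through an integrin. Of 10 genes on the thrombocyte list 1 rose and 2 fell: itgb3 (ENSDARG00000056767) rose by 1.12 ± 0.13, while itga2b (-1.14 ± 0.29) and fermt3 (ENSDARG00000030938, -0.90 ± 0.16) fell. The other entries of itgb3 (ENSDARG00000045070, 0.57 ± 0.195) and fermt3 (ENSDARG00000079267, -0.16 ± 0.22) were not called. The list also holds thpo, a hormone gene, which was not called (0.79 ± 0.39). gp1bb, gp9, mpl and nfe2 lay below 0 and were not called either. Called higher were 10% of this list and called lower 20%. The thrombocyte sum was 68.5 to 78.4 CPM in wild type and 97.0 to 118 CPM in the mutant. Without itgb3 (ENSDARG00000056767) it was 38.8 to 44.2 CPM in wild type and 34.3 to 45.3 CPM in the mutant, so the groups overlapped. The higher count became 2 without wild type replicate 3, without both libraries numbered 3, with the block, DESeq2's Wald test or limma-voom. The lower count became 1 when replicate 1 or 2 of either group was left out. It was also 1 with the block or with a filter of 1 CPM in 4 libraries.

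Of 10 enterocyte genes 4 fell (sum 2731 to 3431 CPM in wild type and 1597 to 2546 CPM in the mutant), among them fabp2 (-1.47 ± 0.23), chia.3 (-1.22 ± 0.15) and rbp2 (ENSDARG00000070038, -1.10 ± 0.18). Those that fell were 40% of the list, against 8.45% of all tested genes. Not called were anpep (0.40 ± 0.22), the most abundant gene apoa4b.1 (-0.096 ± 0.16) and the other rbp2 entry, ENSDARG00000093774 (-0.23 ± 0.21). The rest, apoa4b.2, vil1 and mttp, lay below 0 and were not called either. No gene of that list rose, but 1 did with the block, with limma-voom, or without wild type replicate 3 or both libraries numbered 3. All 17 exocrine pancreas genes fell, such as cpa1 (ENSDARG00000030915, -7.42 ± 0.29), ctrb.2 (-8.16 ± 0.35) and amy2a (-8.35 ± 0.37), from a sum of 13794 to 34813 CPM to one of 111 to 249.9 CPM.

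**Figure D5:**
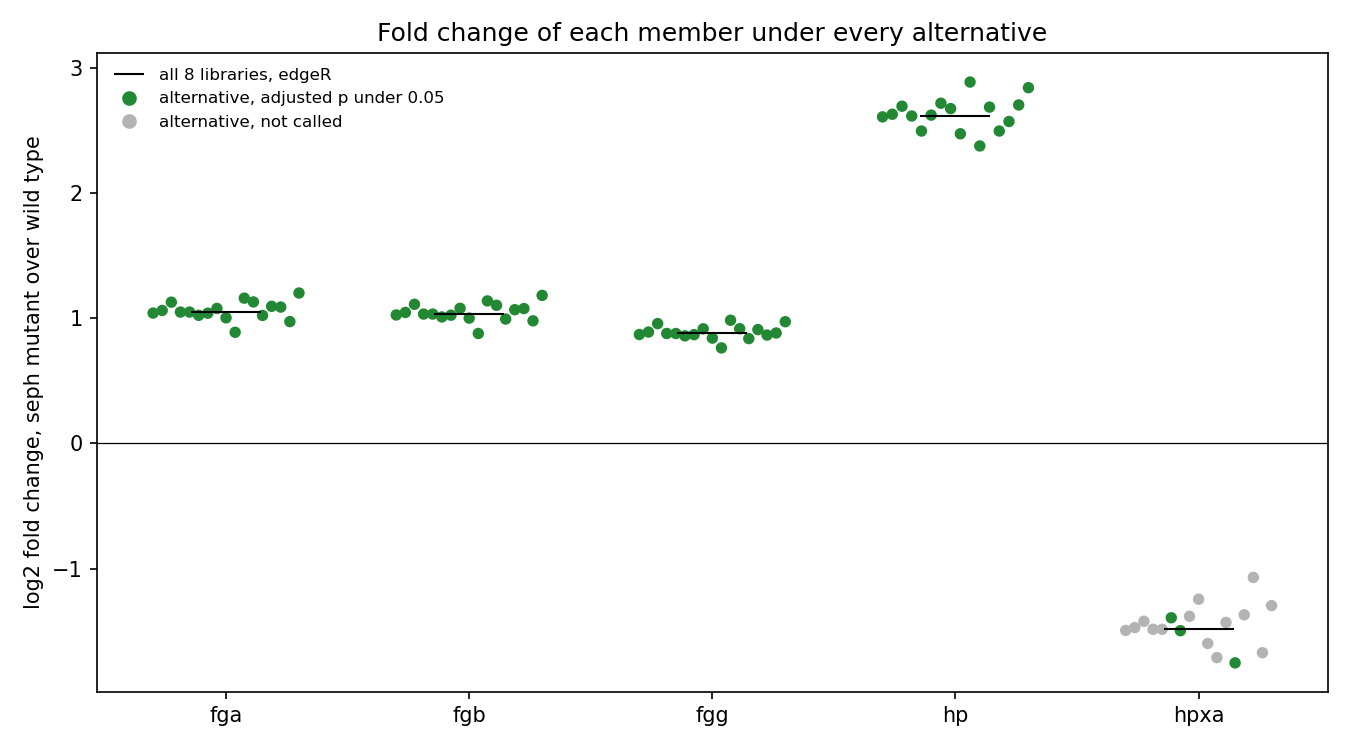
Log2 fold change of each gene of the set with all 8 libraries (bar) and under each alternative (points, coloured by whether the adjusted p was under 0.05). fga, fgb, fgg and hp stay above 0 and called, between 0.76 and 2.88, and hpxa stays below 0, between -1.75 and -1.07, and is called in 3 alternatives.

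Leaving out libraries did not end the call of any fibrinogen gene or of hp. For hp, tested because of its mutant level, this is a description and not support. With 1 library left out, fga ran from 0.89 to 1.16, fgb from 0.88 to 1.14, fgg from 0.76 to 0.98 and hp from 2.37 to 2.88 on the log2 scale, with edgeR quasi-likelihood, BH-adjusted p of at most 0.0229, 0.0190, 0.0198 and 0.0214. Without both libraries numbered 3 the values were 1.2 for fga, 1.18 for fgb, 0.97 for fgg and 2.84 for hp.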

How the data were processed

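The authors deposited raw read counts per Ensembl gene for all 8 samples. STAR 2.3.0e and HTSeq 0.6.0 are named in the submitters' processing notes. Not given in the sources used here are the build, the annotation, the strand setting and how shared reads were counted, so values of paralogues and overlapping genes are uncertain. Members, lists and tests were chosen with earlier results of these data known. Symbols came from a name table and from RefSeq synonyms (GRCz12tu), and 192 of 244 entries of 11 lists matched.

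Counts were filtered with filterByExpr (minimum count 10), scaled with TMM factors and compared by genotype alone in edgeR 4.0.16 (quasi-likelihood F test, R 4.3.3), adjusted by Benjamini-Hochberg. Standard errors were derived from the fold change and F statistic. Ratios used log2 (CPM + 0.5) and exact permutation tests over 70 arrangements (scipy 1.17.1). The steps were tested on simulated data. Separate clutches are not stated in the labels, and p-values therefore reflect the spread of these samples, which may be technical. In units of counting noise the mean squared difference was 8.10 between wild type replicates 1 and 2 and 29.4 to 146 between other libraries of a group. This does not tell repeat libraries of the same RNA from separate samples, and all were counted as labelled.

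Same-numbered libraries deviated together in each of the 4 pairs (correlations 0.249, 0.252, 0.662 and 0.473). Pairs of unlike number ran from -0.461 to 0.253, so for numbers 1 and 2 the likeness is not particular to the number. Every same-numbered pair passed the limit of 0.1, and the replicate block is given where it changes a call. Named genes were the members, up to 3 called genes with the smallest p in each direction per list, a short set always named, and 3 nearest profiles. A gene that this rule names is not reported here. Other genes named in the text, such as list members that went against their list, were chosen after their values were seen. Alternatives were DESeq2 1.42.0 size factors and Wald test, upper-quartile factors, library size only, limma-voom (limma 3.58.1), other filters, the replicate block and leaving out libraries. List counts under these alternatives were added after the data were seen. Promoter motifs were not searched.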

Additional observations from a re-analysis of the deposited data

Results flagged for a closer look

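Of 122 groups of 4 libraries examined, 7 held a library whose gap to its nearest neighbour exceeded Dixon's critical value of 0.829 as a share of the group's range, and chance flags about 1 group in 20. None of them was a fibrinogen gene, hp or hpxa. The share was 0.905 for bmp6 in wild type, where replicate 4 (5.29 CPM) lay below the others (5.70 to 5.74 CPM). It was 0.852 for bmp2 (ENSDARG00000041430) in the mutant, with replicate 3 low at 12.2 CPM. It was 0.951 for cebpb in the mutant, with replicate 3 low at 83.2 CPM against 147 to 150 CPM. For lepb in wild type it was 0.861, with replicate 4 high at 3.31 CPM. For amy2a in wild type it was 0.868, with replicate 3 low at 453 CPM, for rbp2 in wild type 0.912, with replicate 4 low at 144 CPM, and for selenoh in the mutant 0.949, with replicate 2 high at 0.358 CPM.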

How the results depend on the processing

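fga, fgb and fgg kept their direction and call in all 17 alternatives, and hp in all 16 that tested it, since it did not reach 1 CPM in 4 libraries. hpxa kept its direction in all 17 and was called in 3: with the replicate block (-1.39), in the DESeq2 Wald test (-1.495) and without wild type replicate 1. With 1 library left out its value ran from -1.75 to -1.07. Called genes numbered 3783 higher and 3623 lower with the replicate block, 5039 and 4765 with limma-voom, 4200 and 3956 without both libraries numbered 3, and from 1262 to 3667 higher and from 1235 to 3374 lower with 1 library left out. cebpd turned negative with limma-voom (-0.22) and without both libraries numbered 3 (-0.062), and ran from -0.32 to 0.27 with 1 library left out; the cause was not tested. The ratio of fga to fgb, never called, ran from -0.011 (without wild type replicate 4) to 0.029, and the other ratios kept their sign. Differences to the markers lost their call in every design whose smallest two-sided exact p misses 0.05. With 1 library left out (smallest p 0.0571) they ran from 1.61 to 1.84 for fga, 1.605 to 1.83 for fgb, 1.48 to 1.64 for fgg and 1.71 to 2.09 for hp. Without both libraries numbered 3 (smallest p 0.1) they were 1.94, 1.92, 1.72 and 2.17. With the replicate block, which cannot change a mean difference, they were 1.71, 1.69, 1.54 and 1.87 with an exact permutation p = 0.125, the smallest possible. Among the fold changes of the set the block changed the call of hpxa alone. Library size alone moved the median of all genes by 0.076. At this depth hp rests on 7 to 89 counts per library, and it was tested because of its mutant level.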
